A study of Mus musculus with 35 samples.

Results

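KLF4 sites of day 9 alone are genomic regions where KLF4 was called in both libraries of reprogramming day 9 and in no library of day 3, day 6 or serum-grown embryonic stem cells (ESC). They were chosen by KLF4 peak calls only: the peaks of 8 KLF4 libraries on chromosomes 1 to 19 and X were merged wherever they shared at least 1 bp, and the 1483 of 72197 merged regions with that pattern were kept, 2.05% of all. The absence of a peak at the other stages is therefore the rule itself and not a result.

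The cells were mouse embryonic fibroblasts (MEF, C57BL/6 x 129) with a polycistronic OKSM cassette (Pou5f1, Klf4, Sox2 and Myc) in the Col1a1 locus and the M2rtTA transactivator in the Rosa26 locus, which all reprogramming groups shared. MEF were unsorted and had no doxycycline. The other fibroblast groups received doxycycline at 1 µg/ml and ascorbic acid at 50 µg/ml in ESC medium with LIF at 1000 U/ml, and were taken in bulk on day 3 and as SSEA1-positive sorted cells on days 6 and 9. The serum ESC were the V6.5 line, a single line of its own genotype grown on irradiated feeder cells with the same LIF dose, and a 2i group of the same line also received inhibitors of MEK at 1 µM and of GSK3 at 3 µM. A transgene supplied KLF4 in the doxycycline groups, whereas ESC had their own. In these bulk lists a site bound in fewer cells and a site bound less firmly in each cell cannot be told apart.

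KLF4 is a zinc-finger transcription factor known for its roles in skin and gut epithelium and in the pluripotency network, and it is among the factors that turn fibroblasts into induced pluripotent cells. Acetylation of histone H3 at lysine 27 (H3K27ac) marks active enhancers and promoters. Early in reprogramming, fibroblasts are known to lose mesenchymal genes and gain epithelial ones before the pluripotency network is established. H3K27ac lists were not used to choose the sites, so acetylation is the independent measurement here.

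Few of the sites lay on promoters: 48 of the 1483 (3.24%) overlapped 51 windows of 50 genes, 31 of them protein-coding, among 32585 RefSeq windows that run from 250 bases before a gene start to 50 after it (GRCm38.p6). The share was 13% of all merged KLF4 regions, 2.85% of sites called at day 3 alone and 4.98% of sites called in ESC alone. The sequences below are the 250 bases up to the start of the 7 protein-coding genes whose promoter site ranked best by KLF4 peak score, followed by Elf5, which had a site on its promoter and a second site in the gene. They are shown because they are the places where KLF4 was called at a gene start at day 9 alone. Capitals mark 2 KLF strings (GGGNGTGG and GGGCGTG), the E-box string CAGGTG and the AP-1 string TGANTCA on either strand; the KLF strings share letters with each other.
Klf17: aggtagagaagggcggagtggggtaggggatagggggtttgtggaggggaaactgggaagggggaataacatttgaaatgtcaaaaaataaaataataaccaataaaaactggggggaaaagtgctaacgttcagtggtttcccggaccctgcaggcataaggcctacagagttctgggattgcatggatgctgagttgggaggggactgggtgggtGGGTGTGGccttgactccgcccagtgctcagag
Ceacam19: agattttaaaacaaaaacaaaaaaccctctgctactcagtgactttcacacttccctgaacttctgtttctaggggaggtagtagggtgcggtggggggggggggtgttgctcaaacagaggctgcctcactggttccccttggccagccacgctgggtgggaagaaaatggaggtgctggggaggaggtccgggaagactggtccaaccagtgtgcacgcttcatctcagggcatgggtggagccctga
Eps8l1: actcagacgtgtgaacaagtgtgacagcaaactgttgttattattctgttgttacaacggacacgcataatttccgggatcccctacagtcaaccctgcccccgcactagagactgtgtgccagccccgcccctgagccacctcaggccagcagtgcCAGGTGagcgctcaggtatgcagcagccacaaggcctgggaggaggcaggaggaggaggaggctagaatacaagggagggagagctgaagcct
Il17re: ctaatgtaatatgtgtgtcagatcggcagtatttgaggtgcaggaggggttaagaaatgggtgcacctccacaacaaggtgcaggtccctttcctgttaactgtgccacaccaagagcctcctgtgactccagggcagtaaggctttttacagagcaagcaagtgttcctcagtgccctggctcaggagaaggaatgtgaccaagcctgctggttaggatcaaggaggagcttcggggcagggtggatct
Kctd8: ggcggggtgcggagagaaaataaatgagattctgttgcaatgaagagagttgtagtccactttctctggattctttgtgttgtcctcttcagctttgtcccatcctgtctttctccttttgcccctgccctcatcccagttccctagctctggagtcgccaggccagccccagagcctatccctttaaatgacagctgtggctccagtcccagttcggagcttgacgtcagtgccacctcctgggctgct
Ptprh: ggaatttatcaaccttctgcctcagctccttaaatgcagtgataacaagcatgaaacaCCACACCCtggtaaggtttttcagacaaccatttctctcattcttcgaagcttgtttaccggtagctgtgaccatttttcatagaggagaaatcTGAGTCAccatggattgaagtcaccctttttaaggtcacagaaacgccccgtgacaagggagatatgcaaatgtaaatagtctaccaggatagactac
Krtdap: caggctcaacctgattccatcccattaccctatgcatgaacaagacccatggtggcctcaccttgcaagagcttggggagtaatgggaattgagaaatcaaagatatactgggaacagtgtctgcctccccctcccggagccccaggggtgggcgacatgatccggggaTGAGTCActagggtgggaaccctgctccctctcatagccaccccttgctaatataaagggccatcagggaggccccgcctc
Elf5: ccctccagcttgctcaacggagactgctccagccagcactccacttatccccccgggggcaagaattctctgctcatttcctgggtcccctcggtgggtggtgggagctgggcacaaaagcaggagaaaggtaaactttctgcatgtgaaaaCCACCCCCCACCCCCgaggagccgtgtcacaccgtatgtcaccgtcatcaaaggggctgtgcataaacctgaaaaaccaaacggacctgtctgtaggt

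The 8 genes have unlike roles. Klf17 codes for a KLF factor of oocytes and early embryos, Ceacam19 for a CEA-family adhesion molecule, Eps8l1 for an actin-regulating EPS8 relative and Il17re for a subunit of the IL-17C receptor. Kctd8 codes for an auxiliary subunit of GABA-B receptors, Ptprh for a receptor tyrosine phosphatase, Krtdap for a protein of differentiating keratinocytes and Elf5 for an ETS factor of trophoblast and mammary epithelium. The Ceacam19 window (the printed run is chr7:19887966-19888215, minus strand) carried KLF4 peaks of 6.46-fold and 5.91-fold enrichment in day 9 libraries 1 and 2. The Krtdap window (chr7:30787655-30787904, plus strand) had 3.49-fold and 6.05-fold, and the Ptprh window (chr7:4604042-4604291, minus strand) 4.68-fold and 4.19-fold. At Ceacam19, Kctd8, Ptprh and Krtdap the site carried an H3K27ac peak in both day 9 libraries and in none of the other 10, from MEF, day 3, day 6 and ESC. The Klf17 window (chr4:117765667-117765916, minus strand) had KLF4 folds of 5.38 and 6.05, no H3K27ac peak in any of 12 libraries, and a KLF4 peak in both 2i libraries.

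The KLF string at Klf17 began 33 bases before the start and the one at Ptprh 192 bases before it. Over all 51 windows, 15 (29.4%) held either KLF string, beside 20.4% of all promoter windows and 32.7% of the windows under any merged KLF4 region. The share was 20.8% (16 of 77) under day 3 alone sites and 32.6% under ESC alone sites. It was 40.9% (9 of 22) under sites called at day 9 and in ESC only, and 42.9% under KLF4 sites called at all 4 stages. The string CAGGTG, which E-box factors of the ZEB and SNAI families are known to bind, occurred in 20 of the 51 windows (39.2%), beside 20.3% of all windows, 18.2% of those under any merged KLF4 region, 29.3% of those under ESC alone sites, 31.8% (7 of 22) of those under day 9 and ESC sites and 14.3% of those under day 3 alone sites. TGANTCA was in 5 of the 51 (9.8%), beside 7.85% of all windows, 4.40% of those under any merged KLF4 region, 11.7% of those under day 3 alone and 9.78% of those under ESC alone sites. The same windows were searched for further strings: the octamer, SOX, ESRRB, TEAD, GATA, RUNX, TFAP2 and GRHL strings and the E-box string CACGTG. Of these, the GRHL string AACCNGTT was in 5.88% of the 51 windows (2.09% of all) and the SOX string ACAAAGG in 9.8% (5.92%). The ESRRB, GATA and CACGTG shares were lower in the 51 than in all windows, and the rest were higher. CAGGTG is thus 1 of several strings searched, and no share was tested. Some of the 51 windows share sequence, because neighbouring or alternative starts lie under 1 site, and a match only says that the letters are present.

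The sites were weaker than the typical day 9 KLF4 peak. Their median fold enrichment, as the authors' lists give it, was 3.83 in day 9 library 1 (range 1.59 to 11.7) and 4.00 in library 2 (1.61 to 11.5), beside list medians of 4.35 and 4.49. KLF4 sites called at all 4 stages had medians of 6.37 and 7. Sites called at day 9 and in ESC only had 3.99 and 4.12, so medians below those of the lists were not particular to the day 9 alone sites. Of the 1483 sites, 738 (49.8%) had a peak with q of at most 0.01 in library 1 and 849 (57.2%) in library 2, and 535 had it in both. Their median width was 329 bp. These values describe the peaks that chose the sites.

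The border of the rule was soft. Another 1468 regions had both day 9 peaks and a peak in exactly 1 of the other 6 libraries, 42.2% of them in the day 6 library of batch DG-4040 and 23.4% in the ESC library of batch EA-2643. Their day 9 medians, 3.97-fold and 4.31-fold, lay just above those of the sites inside the rule. The sites inside made up 7.75% of the 19140 regions called in both day 9 libraries. Only 92 (6.20%) had a KLF4 region of another stage within 500 bp without touching it.

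H3K27ac covered 50.0% or more of the sites at day 9 and few of them at any other stage. The share of the 1483 sites overlapped by an H3K27ac peak was 52.9% and 50.0% in the day 9 libraries. It was 8.70% and 8.36% in MEF, 6.54%, 5.19% and 3.24% at day 3, 1.96%, 1.48% and 4.92% at day 6, and 13.8% and 11.5% in ESC. Both day 9 libraries stood above all 10 others, and the highest of those was an ESC library. All merged KLF4 regions were also covered most at day 9, at 44.6% and 45.5%, beside 16.6% to 40.2% in the other 10 libraries. The mean was 51.4% ± 2.00 (SD, n = 2) at day 9 and 12.7% ± 1.62 (SD, n = 2) in ESC, and peaks moved by 1 Mb overlapped 3.24% and 4.28% of the sites.

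Day 9 exceeded the mean of the other 10 libraries (6.57%) by 44.9 percentage points, with p = 0.0152 in a two-sided exact permutation test over 66 labelings, the smallest p this design allows, and 0.0303 after Benjamini-Hochberg adjustment over 4 tests. Both day 9 libraries of either mark belong to batch EA-3702, which also holds 1 H3K27ac library of day 3 (6.54%) and 1 of day 6 (4.92%); within it the difference was 45.7 points. With the 17493 best peaks of each H3K27ac list the difference was 20.9 points, the smallest of the alternatives run, at the same p. Leaving out either day 9 H3K27ac library ended the call (43.5 and 46.3 points, exact permutation p = 0.0909, the smallest possible with 1 day 9 library).

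**Figure D1:**
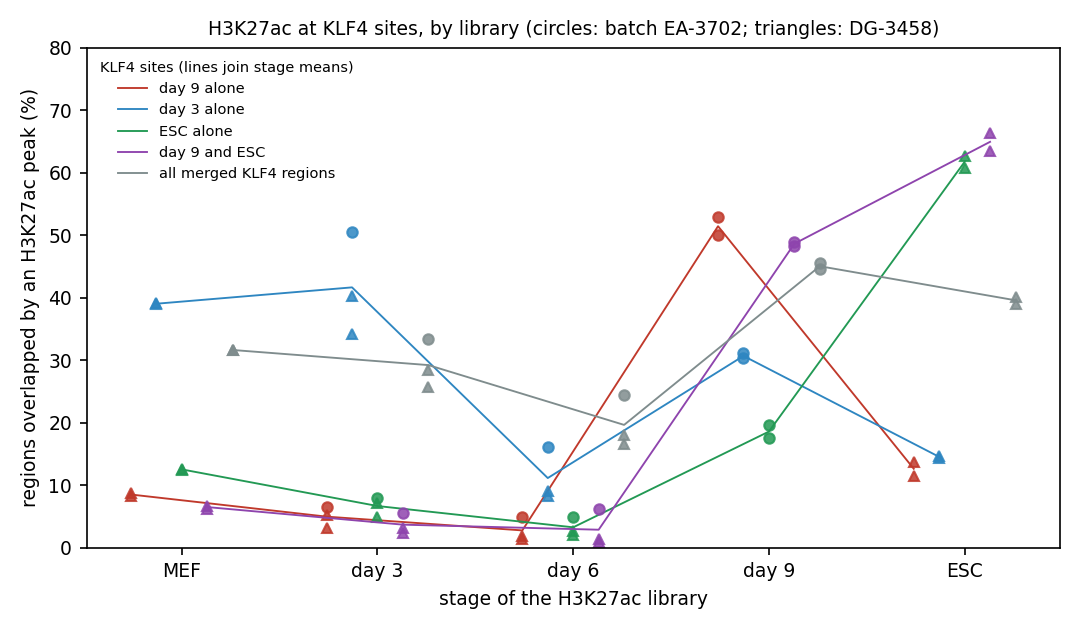
Percent of KLF4 sites overlapped by an H3K27ac peak (vertical axis) in each of 12 H3K27ac libraries, grouped by stage (horizontal axis); colours are sets of KLF4 sites, circles and triangles are the batches, and lines join the stage means. The day 9 alone sites (red) reach 52.9% and 50.0% at day 9 and lie at or below 13.8% in the other 10 libraries.

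KLF4 sites of other stages followed other courses. Day 3 alone sites (2279 regions called in both day 3 libraries and in none of day 6, day 9 and ESC) had stage means of 39.0% (MEF), 41.6% (day 3), 11.2% (day 6), 30.7% (day 9) and 14.5% (ESC). ESC alone sites (3433) stood at 18.6% at day 9 and 61.7% in ESC. The difference between day 9 alone and day 3 alone sites, taken within each library, was 20.7 points at day 9 and -20.0 points elsewhere, a change of 40.7 points (exact permutation p = 0.0152, adjusted 0.0303). Leaving out day 9 library 1 or 2 ended this call too (38.9 and 42.5 points, exact permutation p = 0.0909 each). Against ESC alone sites the same change was 44.1 points, from -11.3 to 32.8 (exact permutation p = 0.0303, adjusted 0.0404). Much of the -11.3 lay in the ESC libraries, at -48.9 and -49.2 points, while the other 8 ran from -4.28 to -0.0877. Without day 9 library 1 the change was 41.6 points (exact permutation p = 0.273), and without library 2 it was 46.6 points (exact permutation p = 0.0909), the smallest p that 11 libraries allow with 1 at day 9 being 0.0909.

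Sites that were called at day 9 and in ESC, but not at day 3 or day 6, had day 9 shares near those of the day 9 alone sites and higher shares in ESC. These 414 regions (day 9 and ESC sites, called in both libraries of either stage and in none of day 3 and day 6) were acetylated at 49.0% and 48.3% in the day 9 libraries, and at 66.4% and 63.5% in ESC, where the day 9 alone sites had 13.8% and 11.5%. At day 9 the sets differed by 3.83 and 1.72 points, within the range of the other fibroblast libraries (-1.36 to 2.42) for 1 library and above it for the other. The change at day 9 against all other libraries was 12.5 points and did not pass (exact permutation p = 0.364, adjusted 0.364). The ESC libraries, on the other side of that test, stood at -52.6 and -52.0 points, and within batch EA-3702 the change was 2.96 points.

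Acetylation at day 9 as such was not particular to the sites. Both day 9 libraries covered 652 of them (44.0%), near the 41.1% of all merged KLF4 regions. The pattern over stages differed from that background. H3K27ac in both day 9 libraries and in none of the other 10 was found at 378 sites (25.5%), beside 4.51% of all merged KLF4 regions, 1.49% of day 3 alone, 0.67% of ESC alone, 7% of day 9 and ESC and 1.91% of the sites of all 4 stages. These shares are given without a test, since regions are not replicates.

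Of the 652 sites acetylated in both day 9 libraries, 110 (16.9%) also had a peak in both ESC libraries, 75 (11.5%) in both MEF libraries and 143 (21.9%) in at least 1 library of day 3 or day 6. Of all merged KLF4 regions acetylated in both day 9 libraries, 63.6%, 54.5% and 75.8% had these patterns. Another 537 sites (36.2%) had no H3K27ac peak in any of the 12 libraries, near the 32.4% of all merged KLF4 regions. Among acetylated sites the median H3K27ac fold was 3.91 and 4.12, close to the list medians of 3.88 and 3.99 and below the 6.43 and 7.06 at sites of all 4 stages.

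Stronger KLF4 peaks were more often acetylated at day 9. The sites were ranked by day 9 KLF4 −log10 p into 4 groups of near equal size. In the weakest group (371 sites), 44.7% and 42.0% had H3K27ac in the day 9 libraries. In the strongest group (370 sites) the values were 63.8% and 61.1%. The other 10 libraries showed no such rise: they ran from 2.70% to 12.7% in the weakest group and from 0.541% to 12.2% in the strongest. The relation is across sites and has no test. KLF4 and H3K27ac libraries of day 9 share a batch and the labels list 1 input library for it; the part of either in this relation was not tested.

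**Figure D2:**
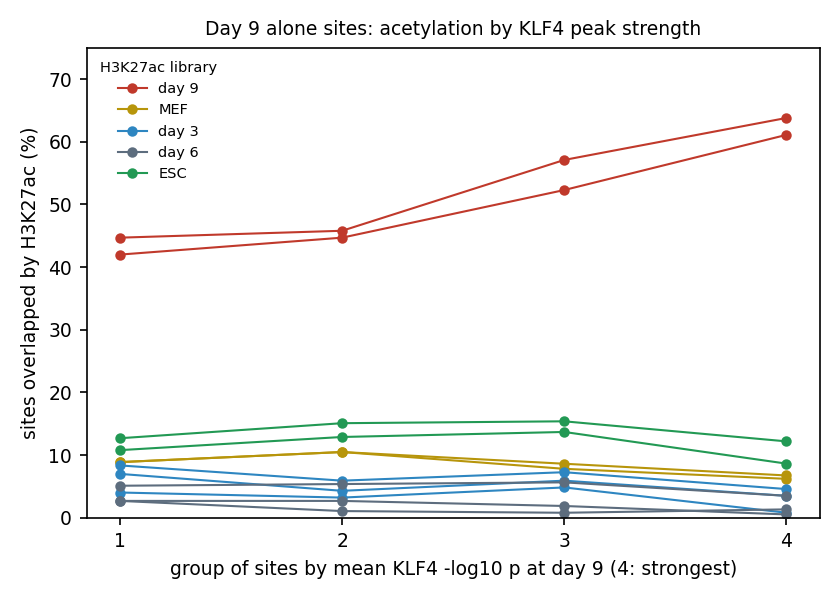
Percent of the day 9 alone sites with H3K27ac (vertical axis) in 4 groups of the sites by mean KLF4 −log10 p over both day 9 lists (horizontal axis, 4 is the strongest); each line is 1 of 12 H3K27ac libraries, coloured by stage. The day 9 lines climb from 44.7% and 42.0% to 63.8% and 61.1%, and all other lines stay at or below 15.4%.

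Few of the sites were called in ESC grown in 2i. The 2i lists were not used by the rule, but they come from the same line as the serum ESC lists that were. KLF4 peaks of the 2i library of batch EA-3702 covered 62 sites (4.18%) and those of batch DG-3012 covered 111 (7.48%), 27 sites in both. With 2i peaks of q at most 0.01 these shares were 2.29% and 1.75%, so the order of the libraries turned. Shifted peaks covered 0.809% and 0.877% of the sites, and the unshifted 2i peaks covered 26.4% and 28.3% of all merged KLF4 regions. The values were 3.16% and 4.12% for day 3 alone sites, 50.1% and 56.5% for ESC alone sites, and 54.6% and 64.3% for day 9 and ESC sites. Day 9 alone and day 3 alone sites were both chosen without a serum ESC peak and the other sets with one, so this order is not independent of the rule. Of the 1483 sites 1337 had no peak in either 2i library. The 146 sites with a 2i peak were acetylated at 39.0% and 37.0% in ESC, against 11.1% and 8.75% of the other 1337, and at 49.3% and 48.6% at day 9, against 53.3% and 50.2%.

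Most of the sites lay away from gene starts. Distances were taken for the 1434 sites on chromosomes with starts in the table used, which lists starts for 17274 of 21631 protein-coding genes and none on chromosome 18, so they are upper limits. Of these sites 93 (6.49%) lay within 2.5 kb of a start, beside 4.95% after a shift of 1 Mb, 8.75% of day 3 alone, 11.2% of ESC alone, 7.02% of day 9 and ESC, 45.1% of all-stage and 20.1% of all merged regions. The median distance was 36.3 kb. Measured to either end of a gene, which the gene table gives on every chromosome used, 11.7% lay within 2.5 kb, against 26.1% of all merged regions. Of the 1483 sites 50.0% lay within the span of a protein-coding gene, and 45.0% after the shift, beside 53.9% of all merged KLF4 regions, 57.6% of day 3 alone and 44.5% of ESC alone sites.

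**Figure D3:**
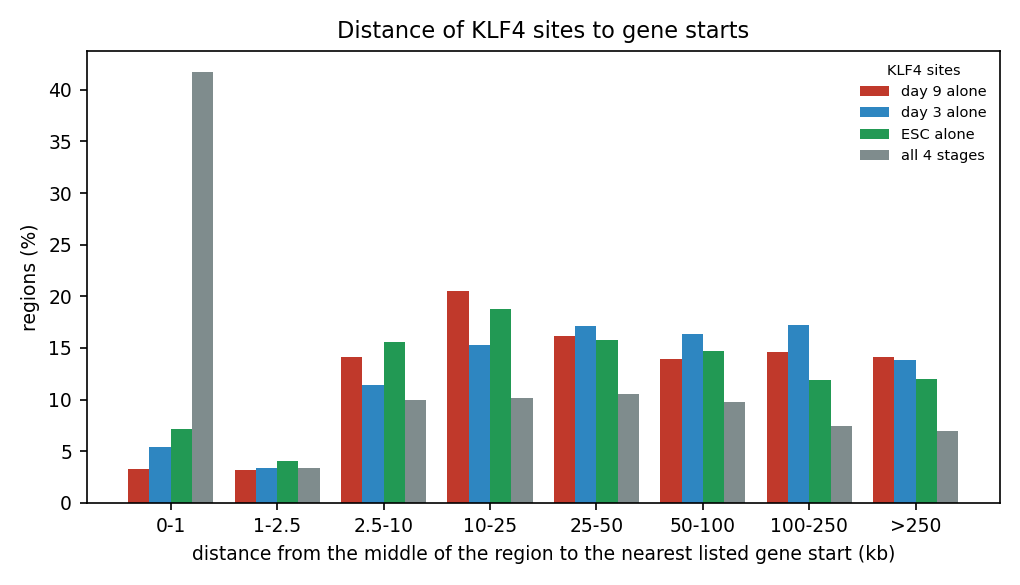
Percent of KLF4 sites (vertical axis) by distance from the middle of the site to the nearest listed gene start in kb (horizontal axis, uneven bins); bars are day 9 alone, day 3 alone, ESC alone and all-stage sites. Day 9 alone sites hold 3.28% within 1 kb, where all-stage sites hold 41.7%.

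Acetylated sites lay nearer to starts, a description with no test. Those with H3K27ac in both day 9 libraries had a median distance of 30.0 kb, and 9.27% were within 2.5 kb. The 609 sites with H3K27ac in neither had 42.8 kb and 4.24%. On promoter windows, 31 of 48 sites carried H3K27ac in both day 9 libraries, 13 of them in no other library, 4 carried it in all 12, and 9 in none. These shares were not taken for all merged KLF4 regions on promoter windows, so the counts have no background beside them. Without the sites within 2.5 kb of a start, the day 9 difference in acetylation was 44.7 points.

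Epithelial genes were the list with the largest share of genes near a site. Across all 21631 protein-coding genes 10.8% had a day 9 alone site within 50 kb. Of 25 epithelial genes 10 (40%) had one: Cldn6, Ocln and Tjp3 of the tight junction, Dsp of the desmosome, the keratins Krt8 and Krt18, the anchoring filament protein Lad1, the splicing regulator Esrp1 and the transcription factors Ovol1 and Ovol2. These 10 genes shared 9 sites, 1 of them near both keratins. H3K27ac was in both day 9 libraries at 6 of the 9, beside 44.0% of all day 9 alone sites. KLF4 peaks with q of at most 0.01 in both day 9 lists were found only at the sites near Cldn6, Ovol2 and the keratins and inside Dsp. The share of genes at that limit is not given here. Cdh1, which codes for E-cadherin, had no day 9 alone site within 50 kb, although 24 merged KLF4 regions lay that near. ESC alone sites lay near 12 of the 25 genes (23.9% of all genes), day 3 alone sites near 3 (14.1% of all genes), and day 9 and ESC sites near 5 (3.14% of all genes). Counted by sites, 0.607% of the day 9 alone sites lay within 50 kb of these genes, beside 0.452% of all merged KLF4 regions, 0.0878% of day 3 alone, 0.466% of ESC alone and 0.725% of day 9 and ESC sites and 0.741% of the sites of all 4 stages. The day 9 alone share lay between those of these sets, without a test.

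The epithelial site of best rank was 12.1 kb from Cldn6, a claudin of early embryonic epithelium, and 9660 bp from 1520401A03Rik (chr17:23694545-23694947). Its KLF4 folds were 6.00 and 6.14, and it had H3K27ac in both day 9 libraries and in none of the other 10. The site 1.12 kb upstream of Krt8 (chr15:102005462-102005973), a keratin of simple epithelia, had folds of 4.67 and 5.53 and the same H3K27ac pattern, as did the sites inside Dsp (6.22 and 4.51) and Ovol1 (2.64 and 2.86). The site 29.9 kb from Ovol2 (3.87 and 6.21) lay in Mgme1 and was acetylated in both day 9, both MEF, both ESC and all 3 day 3 libraries. The site 41.6 kb from Ocln (6.42 and 3.67) was acetylated in both day 9 libraries and 1 MEF library. The sites in Esrp1, near Lad1 (inside Tnni1) and near Tjp3 (inside Pip5k1c) had no H3K27ac peak in any library.

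At Krt8 the day 9 alone site was 1 of several KLF4 sites. All 8 libraries of the rule and both 2i libraries had a peak in the first part of the gene, and the day 9, ESC and 2i libraries had a further peak at its start. The site upstream of the start was called in the day 9 libraries only. An H3K27ac peak touched it in both of these libraries, while no MEF, day 3, day 6 or ESC peak reached it. Upstream, the nearest day 3 peak (batch EA-3702) ended at -2.012 kb from the start and the nearest MEF peak at -2.045 kb.

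**Figure D4:**
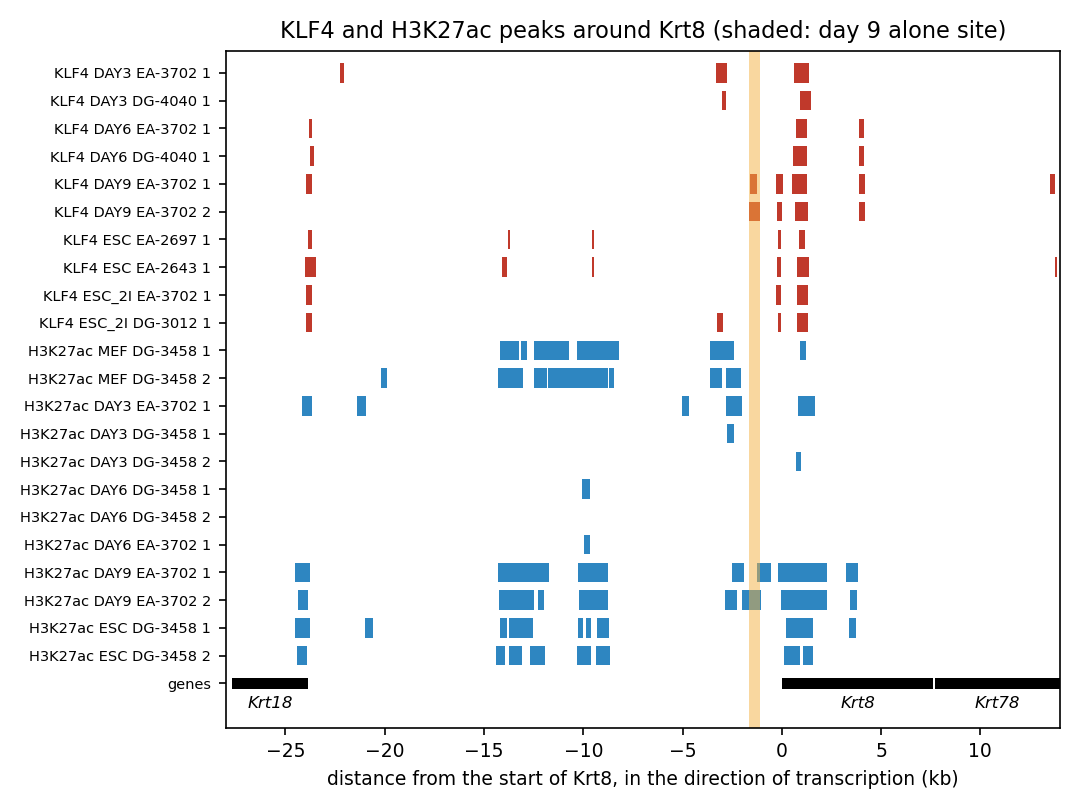
Peaks of 10 KLF4 (red) and 12 H3K27ac (blue) libraries, 1 row per library, by distance from the start of Krt8 in kb along its direction of transcription (horizontal axis), with genes as black bars. The shaded day 9 alone site, 1.12 kb or more upstream, has a KLF4 peak in the 2 day 9 rows and in no other KLF4 row.

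Keratinocyte genes came next, with 3 of 8 (37.5%), beside 10.8% of all protein-coding genes. Day 3 alone sites lay near 1 of the 8 (14.1% of all genes), ESC alone sites near 2 (23.9%) and day 9 and ESC sites near 0 (3.14%). Krt5 and Krt6a, keratins of stratified epithelium, shared a site 0.375 kb from Krt6a (chr15:101689003-101689552) with folds of 6.94 and 5.12 and H3K27ac in both day 9 libraries alone. The site 35.4 kb from Sfn, which codes for the 14-3-3 sigma protein of epithelial cells, lay 4082 bp from Zdhhc18. It had folds of 4.54 and 5.88 and H3K27ac in 1 day 9 library. Both groups are small and neighbouring genes shared sites, so the counts are fewer than the genes.

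Of 21 genes of pluripotency 1 (4.76%) had a site within 50 kb, a difference of about 1 gene from the 10.8% of all genes. Counted by sites, 0.0674% of the day 9 alone sites lay near these genes, beside 0.291% of all merged KLF4 regions, 0.0878% of day 3 alone, 1.11% of ESC alone and 1.69% of day 9 and ESC sites. The gene was Utf1, a chromatin protein of ESC; its site lay 33.4 kb away in Spef1l, had folds of 2.41 and 3.67, and was acetylated in both MEF, both day 9 and both ESC libraries and in 2 of 3 day 6 libraries. ESC alone sites lay near 18 and day 9 and ESC sites near 7 of the same 21 genes, which include Pou5f1, Sox2, Nanog and Esrrb. All 21 had some merged KLF4 region within 50 kb. Of 14 of these genes with a listed start, 12 to 13 carried H3K27ac there in the day 9 libraries, 14 in ESC and 3 to 4 in MEF, day 3 and day 6. The share of all gene starts with H3K27ac was not taken, so these counts have no background beside them.

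**Figure D5:**
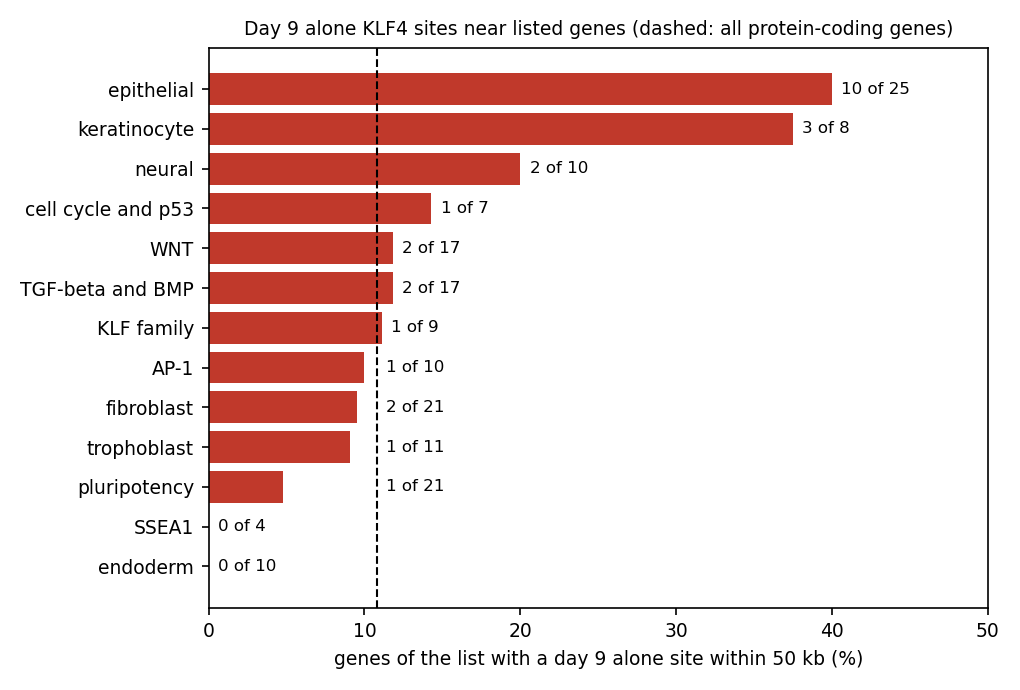
Percent of the genes of 13 lists that have a day 9 alone KLF4 site within 50 kb (horizontal axis), with the number of genes beside each bar; the dashed line is the 10.8% of all protein-coding genes. The epithelial list reaches 40% and the pluripotency list 4.76%.

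In the remaining lists 0% (endoderm, SSEA1) to 20% (neural) of the genes had a site within 50 kb, beside 10.8% of all protein-coding genes. These lists hold 4 to 21 genes, and their sites varied in acetylation. Fibroblast genes had 2 of 21. A site 38.9 kb from Fn1, the gene of fibronectin, was acetylated in both day 9 and in all 5 MEF and day 3 libraries. One 42.1 kb from Fbn1, the gene of fibrillin, lay inside Dut and was acetylated in both ESC libraries and at no other stage. The TGF-beta and BMP list had 2 of 17, as Lefty1 and Lefty2, inhibitors of NODAL, shared a site 7.10 kb from Lefty2 that was acetylated in both day 9 and both ESC libraries. WNT genes had 2 of 17 (Wnt4, a ligand, and Tcf7l1, a nuclear effector), with the Tcf7l1 site 30.3 kb away inside Elmod3. Neural genes had 2 of 10, of which the site in Neurog2 (4.54-fold and 4.56-fold) was acetylated in both day 9 libraries alone. The KLF list had 1 of 9, a site 3.08 kb from Klf4 itself (5.81-fold and 4.45-fold) without H3K27ac in any library.

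Elf5 was the 1 of 11 trophoblast genes with sites, and its pair lay inside the gene. The site on its promoter had folds of 3.49 and 3.32 and H3K27ac in 1 day 9 library, and the other (chr2:103417205-103417627) had 3.27 and 4.45 and none. The AP-1 gene Jund had a site 18 kb away, 708 bp from Lsm4, that was also called in both 2i libraries. Mdm2, which codes for the ubiquitin ligase of p53, had one 12.4 kb away inside Cpm, acetylated in both day 9 libraries alone. No endoderm (10) or SSEA1-related (4) gene had a site.

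H3K27ac at listed gene starts was counted for the other lists as well, again without the share of all gene starts. Of 17 epithelial genes with a listed start, 16 carried H3K27ac in each day 9 and each ESC library. The counts were 5 to 10 at day 6, 4 to 8 at day 3 and 5 to 6 in MEF. Other lists also had higher counts at day 9 than at day 6. Of 8 trophoblast genes 0 to 1 and then 5 carried it, and of 15 WNT genes 7 to 8 and then 11. The KLF family (7 of 7) and AP-1 (8 of 9) counts were the same in every library. Of 13 fibroblast genes, all 13 carried it in MEF, 11 at day 3, 7 at day 6, 7 to 8 at day 9 and 6 to 8 in ESC. The H3K27ac lists differ in length, with 88070 and 88347 peaks in MEF and 17493 to 22462 at day 6. With no share over all gene starts, these counts do not show whether the lists differ from starts in general. SSEA1 sorting was applied to the day 6 and day 9 cells and not before, so sorting and stage cannot be told apart between day 3 and day 6.

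The 20 sites of best mean rank were led by sites in Tatdn3, Nebl, Metrnl and Atp6v1d. Tatdn3 codes for a TatD-family DNase, Nebl for the actin-binding protein nebulette, Metrnl for the secreted protein meteorin-like and Atp6v1d for a subunit of the vacuolar proton pump. Their KLF4 folds in day 9 libraries 1 and 2 were 10.4 and 9.79 for Tatdn3 (chr1:191058794-191059212), 11.5 and 9.93 for Nebl (chr2:17704387-17704866), 7.66 and 8.27 for Metrnl (chr11:121712942-121713421) and 11.5 and 9.46 for Atp6v1d (chr12:78848303-78848837). Among all day 9 peaks the 20 sites ranked at best 1513 of 24004 in library 1 and 1611 of 26003 in library 2.

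H3K27ac was present in both day 9 libraries at 11 of the 20, Nebl, Metrnl and Atp6v1d among them, and absent from all 12 libraries at Tatdn3. Another of the 20 lay in Ptk2b, the gene of the focal adhesion kinase PYK2 (9.04-fold and 8.78-fold), and 1 lay 25.7 kb from Sema6a, a semaphorin gene (10.2-fold and 8.80-fold); both had H3K27ac in the day 9 libraries alone. The site in Prkch, the gene of protein kinase C eta of epithelial cells, had 10.2-fold and 6.16-fold and no H3K27ac. Across the 20, each day 9 library covered 13, each ESC library 0 or 2, each MEF library 1 or 2, and no day 3 or day 6 library covered any. Of the 100 best-ranked sites 62 had H3K27ac in both day 9 libraries. The counts for the 20 and the 100 stand beside 44.0% of all 1483 sites and 41.1% of all merged KLF4 regions.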

How the data were processed

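KLF4 (10) and H3K27ac (12) ChIP-seq libraries each had 1 deposited peak list; input libraries were not used here. Per the submitters' processing notes the tools were cutadapt 1.8.1, Bowtie2 2.2.5, deepTools 2.3.6 and MACS2 2.1.1 with build mm10; settings and sequencing depth are not given in the sources used here, so a region without a peak may still hold signal. For every peak the authors gave a score, a ratio to background (the fold enrichment) and both p and q as −log10, down to p of about 0.01. The deposited lists held 21129 to 34640 KLF4 peaks in the 8 libraries of the rule and 17493 to 88347 H3K27ac peaks.

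Merging, overlap (at least 1 bp) and exact permutation tests over libraries were done in Python 3.11.15 (numpy 2.4.6, pandas 2.3.3) and were tested on simulated lists. Labels do not say that replicates came from separate animals, so the units of the tests are libraries. Each p-value ranks the day 9 difference among relabelings of libraries from different stages. It does not measure the spread between replicates of a stage. Gene spans, starts and promoters came from RefSeq tables of GRCm38.p6, the assembly of mm10; all listed genes were found, and 1 epithelial gene is not reported here. Named sites were the 20 best by mean rank of the score in both day 9 lists and up to 3 per gene list, and the other sites near listed epithelial genes were named after their values were seen. The sites, gene lists, tests and alternatives were chosen with earlier results of these data known. A genome was not used here, so the planned motif search at the sites themselves was replaced by promoter windows.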

Additional observations from a re-analysis of the deposited data

Results flagged for a closer look

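A pair of comparisons stood out because sets of KLF4 sites moved differently in the same libraries by a test of the difference itself. Between the other stages and day 9, the acetylated share of day 9 alone sites rose by 40.7 percentage points more than that of day 3 alone sites (exact permutation p = 0.0152, adjusted 0.0303). It rose by 44.1 points more than that of ESC alone sites (exact permutation p = 0.0303, adjusted 0.0404). In this second comparison the ESC libraries stood at -48.9 and -49.2 points and the other 8 between -4.28 and -0.0877, and without day 9 library 1 the change was 41.6 points (exact permutation p = 0.273) and without library 2 it was 46.6 (exact permutation p = 0.0909). In the first comparison leaving out day 9 library 1 or 2 gave 38.9 and 42.5 points (exact permutation p = 0.0909 each), so neither call held without a day 9 library. Both day 9 libraries lay above all 10 others in both comparisons. Day 9 libraries come from a single batch, and against its 1 day 3 and 1 day 6 library alone the differences were 48.4 and 33.6 points. In MEF and at day 3 the day 3 alone sites had mean shares of 39.0% and 41.6% and the day 9 alone sites 8.53% and 4.99%, so the early libraries enter the first difference as well.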

How the results depend on the processing

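The 3 acetylation differences that passed kept their direction under all 22 alternatives each, and ranged from 20.9 to 55.2 points (day 9 alone sites), 23.9 to 49.6 (minus day 3 alone) and 23.8 to 53.5 (minus ESC alone), the low ends with the same number of H3K27ac peaks per library. Within batch EA-3702 they were 45.7, 48.4 and 33.6 points, with p = 0.333, the smallest that 6 labelings allow in a two-sided exact permutation test. Leaving out 1 H3K27ac library at a time gave 43.5 to 46.3, 38.1 to 42.8 and 39.9 to 46.6 points, and the call was lost only without a day 9 library. The replicate block (35 labelings within replicate numbers) gave exact permutation p = 0.0286 for the first and second and 0.0571 for the third, still at 44.1 points. In batch DG-3458 the numbers showed little pairing: same-numbered libraries had correlations of 0.00217 to 0.0242 in their deviations over 8313 regions. That batch holds no day 9 library, so pairing of the day 9 libraries was not examined. The comparison with day 9 and ESC sites ran from 2.96 to 21.4 points and passed in none of its 22 alternatives.

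The number of sites was 1112 with q of at most 0.01 in every KLF4 list, 535 of them (48.1%) among the 1483, and 1333 with the same number of peaks per list, 939 of them shared. Requiring q of at most 0.01 in both day 9 lists alone left 535; this limit was chosen after seeing the data, as were the tests away from gene starts and the promoter windows. Leaving out 1 KLF4 library gave 1524 to 3570 sites, with 3570 and 2960 without day 9 library 1 and 2. The 2i shares fell to 2.29% and 1.75% with 2i peaks of q at most 0.01. Windows of other widths around the sites were not run, as genome sequence was not used here.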

Other observations

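A larger share of the merged KLF4 regions on chromosome X than on any autosome were day 9 alone sites: 51 of 1343 (3.80%), beside 1.62% to 2.62% on chromosomes 1 to 19. For day 3 alone sites X stood at 2.46%, below all 19 autosomes, and for ESC alone sites at 5.44%, within their range of 3.21% to 5.85%. Sites of all 4 stages were rarest on X (4.10% against 6.75% to 9.17%). Of the 51 sites on X, 23 had H3K27ac in both day 9 libraries, as did 652 of all 1483. The sex of the animals is not in the labels used here, and no test was made.

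The sites were scattered. Among windows of 1 Mb with a KLF4 region, 623 held 1 site and 3 held 6, the most. The 3 windows were chr1:165000001-166000000 with Pou2f1, the gene of OCT1, chr6:134000001-135000000 with the ETS gene Etv6 and the cell cycle inhibitor gene Cdkn1b, and chr19:53000001-54000000 with Mxi1, which codes for a MYC antagonist, and Pdcd4. They held 47, 64 and 99 merged KLF4 regions, and 4, 3 and 3 of their 6 sites had H3K27ac in both day 9 libraries, beside 652 of all 1483. Another site lay within 50 kb for 222 sites (15.0%), beside 23.3% of day 3 alone and 36.1% of ESC alone sites, which are more numerous. Lypd6b, which codes for a LY6-domain protein, was the gene with the most sites within 50 kb, 4 of its 11 merged regions, with no day 3 alone and no ESC alone site.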
